A study of Mus musculus and Homo sapiens with 20 samples.

Results

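Gsta2, Gsta3 and Gsta4 encode alpha-class glutathione transferases, and accessible chromatin around these 3 genes was followed in mouse hepatocytes by ATAC-seq, in which the Tn5 transposase inserts sequencing adapters into open DNA. Overlapping peaks of the 12 hepatocyte libraries (1 bp was enough) were joined into regions, and a region belonged to a gene if that gene's body was the nearest protein-coding one within 50 kb. This gave 90 regions of 642948, with 14 at Gsta2, 56 at Gsta3 and 20 at Gsta4. The genes were chosen by their measured B2_minus differences: Gsta2 signal was higher in vitamin B2-deficient libraries in both Ad arms while a Gsta3 region was lower. Differences between B2_minus and control at these genes are therefore given as descriptions with no test.

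All 12 libraries came from hepatocytes whose Ahr gene was floxed, and 4 weeks is the label they share. There were 4 groups, with 3 libraries each: B2_minus with Ad_Cont, control with Ad_Cont, B2_minus with Ad_Cre and control with Ad_Cre, where B2_minus stands for vitamin B2 (riboflavin) deficiency. Cre is the recombinase that removes DNA between loxP sites, and Ahr encodes the aryl hydrocarbon receptor, named in the title of the series as a sensor of vitamin B2. The labels do not say what promoter drives Cre, which part of Ahr is flanked by loxP sites, or which animal or culture each replicate is from. The p-values therefore cover the spread among these libraries only, and that spread may be technical. The other 8 libraries of the series came from human HepG2 cells and were not used here.

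Glutathione transferases join the tripeptide glutathione to reactive, electrophilic compounds, which makes these more soluble and easier to export. The alpha class is abundant in liver and also reduces lipid peroxides, and Gsta4 is known for its activity on reactive aldehydes formed from oxidised lipids. In rodents, transcription of alpha-class genes is known to respond to Nrf2, which binds antioxidant response elements, and to ligands of the aryl hydrocarbon receptor.

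The start sites of Gsta2 and Gsta3 lie in the regions that the results turn on, so the 250 bases upstream of each are shown, as given by RefSeq on GRCm38.p6, 5′ to 3′ on the strand of the gene. The Gsta2 stretch is chr9:78347146-78347395 on the minus strand, and its capitals mark the core bound by the aryl hydrocarbon receptor, GCGTG. The Gsta3 stretch is chr1:21240335-21240584 on the plus strand, and its capitals mark, in order, a match to the C/EBP motif TTGCNNAA on the opposite strand and a match to the core of the antioxidant response element, TGACNNNGC.
Gsta2: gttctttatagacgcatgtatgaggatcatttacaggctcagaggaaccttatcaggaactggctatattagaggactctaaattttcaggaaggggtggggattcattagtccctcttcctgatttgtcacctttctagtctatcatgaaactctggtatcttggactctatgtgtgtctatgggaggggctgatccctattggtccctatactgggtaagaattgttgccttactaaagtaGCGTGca
Gsta3: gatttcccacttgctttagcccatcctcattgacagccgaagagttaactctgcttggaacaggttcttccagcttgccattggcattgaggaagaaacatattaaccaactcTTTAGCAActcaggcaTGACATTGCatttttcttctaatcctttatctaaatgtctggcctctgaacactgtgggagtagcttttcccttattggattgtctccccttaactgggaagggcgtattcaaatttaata
The GCGTG at Gsta2 lies at bases -7 to -3 from the start site used, chr9:78347145. The annotated gene extends to 78347192, so these bases fall inside its span. In front of Gsta3 the C/EBP match lies at -137 to -130 and the antioxidant core at -121 to -113. Over all 32851 RefSeq windows, each from 250 bases before to 50 after a start site and read on both strands, GCGTG was present in 32.4%, TGACNNNGC in 12.4% and TTGCNNAA in 10.8%. Neither window held the AP-1 motif TGANTCA, found in 7.81% of windows, or the HNF1 motif or the HNF4 motif as searched, found in 0.0609% and 0.475%. The searched motifs do not overlap one another in these windows, and no match says only that these letters are not in this window. The upstream 250 bases of Gsta2 held 43.2% G and C and those of Gsta3 42.0%, against a median of 52.4% over all windows.

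A region was compared between groups where every library listed a peak in it, because a peak list does not say how far below its lowest count a missing site lies. In these lists the lowest listed count was 6 to 8 tags and the highest 315 to 350, over 200698 to 281141 peaks and 3897632 to 5557678 listed tags per library, and the sequencing depth is unknown. Of the 90 regions, 20 were listed in all 12 libraries, with 5 at Gsta2, 9 at Gsta3 and 6 at Gsta4, against 101575 in the whole data set. A region listed everywhere had to be fairly accessible in both conditions, so these 20 do not stand for the other 70. Values are scaled tags, the highest peak count in the region divided by the TMM-adjusted size of the library relative to the mean library. Each library listed between 37 and 47 of the 90 regions. The farthest of the 90 lay 41110 bp from Gsta3 and was listed in 1 library, with 8 tags, and no region beyond 50 kb had one of the 3 genes as its nearest.

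Gsta2 showed the clearest difference of the 3 genes, at its own start site. The region chr9:78347083-78347345 (mm10) covers the RefSeq start site of Gsta2, which is transcribed from the minus strand and spans chr9:78331018-78347192. It held 52.0, 53.3 and 42.1 scaled tags in B2_minus libraries with Ad_Cont, against 24.3, 29.9 and 22.7 in control libraries with Ad_Cont. With Ad_Cre it held 52.2, 46.9 and 49.0 in B2_minus libraries and 25.4, 28.8 and 25.4 in control libraries. Each B2_minus library was above each control library in both arms, and the lowest B2_minus value of all, 42.1, was well above the highest control value, 29.9. Group means were 49.1 ± 6.13 in B2_minus and 25.6 ± 3.77 in control with Ad_Cont, and 49.3 ± 2.63 in B2_minus and 26.5 ± 1.99 in control with Ad_Cre (SD, n = 3 each). The fitted B2_minus over control ratio was 1.91 with Ad_Cont (log2 0.93, SE 0.157) and 1.85 with Ad_Cre (log2 0.89, SE 0.151). The fit lets the variance fall below that of counting alone (Poisson), and these SEs are smaller than counting noise alone would give.

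**Figure D1:**
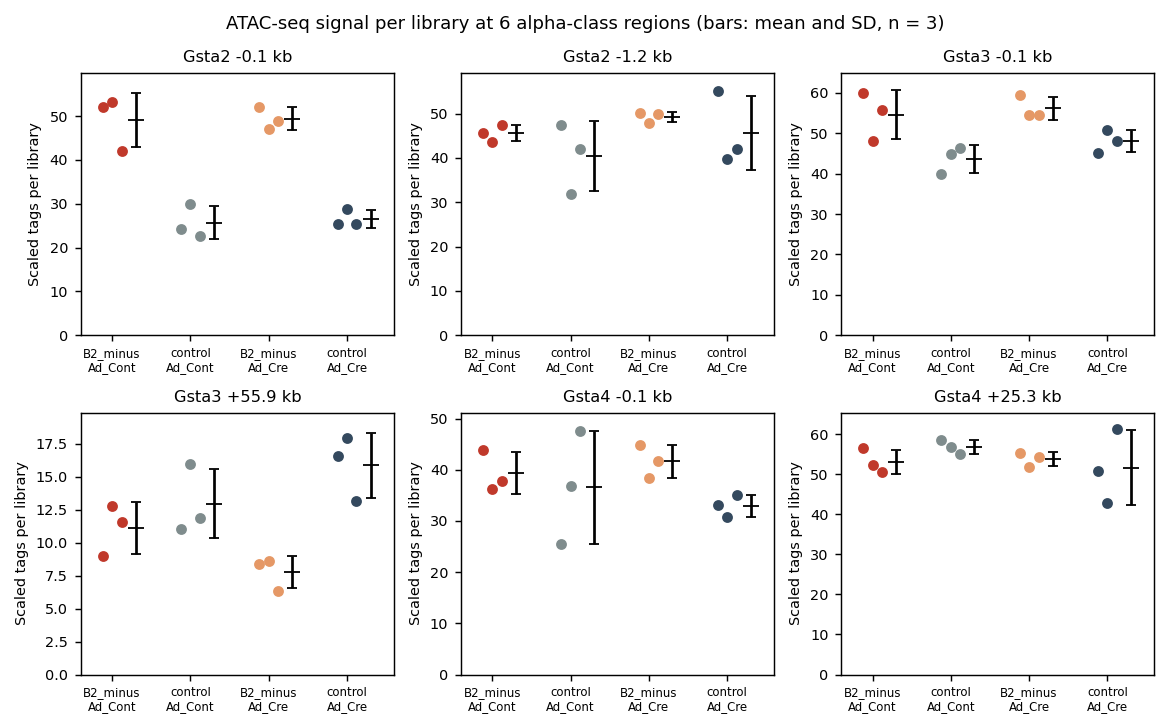
Scaled tags (y axis) of each library (points) in 6 alpha-class regions, by group (x axis), with the group mean and SD to the right of the points (n = 3). Panel titles give the distance of the region's centre from the gene's start site, or for Gsta4 from its lower-coordinate end. At the Gsta2 start site all B2_minus points lie at 42.1 or above and all control points at 29.9 or below, while 1.23 kb upstream the groups overlap.

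Set against other promoters, the Gsta2 start site stood at the top of the ranking. Among 12188 regions that were listed in every library and overlapped a RefSeq start-site window, it ranked 1 by the B2_minus over control log2 fold change averaged over both Ad arms, at 0.91, where the median was -0.0015. Its signal was not strong among promoters, with rank 8619 by mean scaled tags. The Gsta3 start site ranked 289 by the averaged log2 fold change, at 0.27. The start site of Gsta1, a further alpha-class gene on chromosome 9, ranked 32, at 0.44. These ranks rest on the same values that chose the genes.

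**Figure D2:**
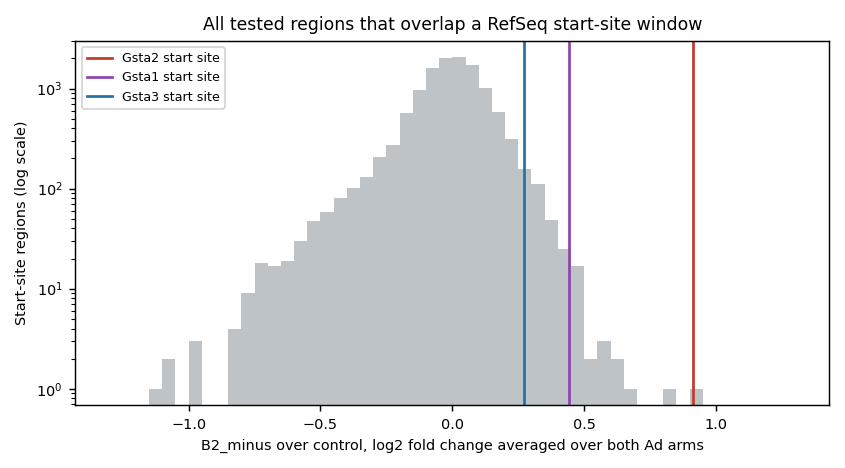
Number of start-site regions (y axis, log scale) by B2_minus over control log2 fold change averaged over both Ad arms (x axis), for the 12188 regions listed in every library that overlap a RefSeq start-site window. Vertical lines mark Gsta2 at 0.91, Gsta1 at 0.44 and Gsta3 at 0.27.

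The next strong region upstream overlapped between the groups. The peak called at the Gsta2 start site was centred at -101 to -38 bp from the start in all 12 libraries. The next region upstream with a peak in every library, chr9:78348246-78348498, lies 1054 bp outside the gene, and a weaker region between them was listed in 10 libraries. It held 45.7, 43.7 and 47.3 scaled tags in B2_minus and 47.5, 31.9 and 42.1 in control libraries with Ad_Cont. With Ad_Cre it held 50.1, 47.9 and 49.9 in B2_minus and 55.1, 39.8 and 42.1 in control libraries. The groups overlapped in both arms, with log2 fold changes of 0.18 (SE 0.137) and 0.12 (SE 0.127). The ratio of the start-site region to this neighbour needs no scaling between libraries. It was 1.14, 1.22 and 0.889 in B2_minus against 0.512, 0.938 and 0.539 in control with Ad_Cont, and 1.04, 0.980 and 0.982 in B2_minus against 0.460, 0.725 and 0.604 in control with Ad_Cre. The ratios overlapped with Ad_Cont, where the second control library reached 0.938, and did not overlap with Ad_Cre.

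**Figure D3:**
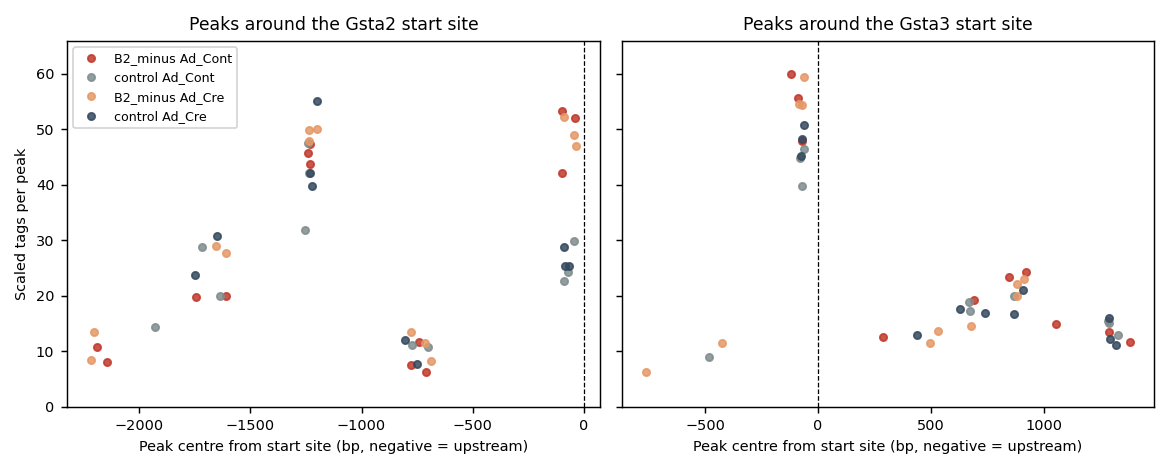
Scaled tags of each listed peak (y axis) against the distance of its centre from the start site in bp (x axis), for Gsta2 (left) and Gsta3 (right), coloured by group. Just upstream of the Gsta2 start the B2_minus peaks reach 42.1 to 53.3 and the control peaks 22.7 to 29.9, and at the Gsta3 start the groups lie closer.

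The other 3 Gsta2 regions listed in every library lie farther upstream and held fewer tags. The region 4720 bp outside the gene (chr9:78351912-78352194) had log2 fold changes of 0.53 (SE 0.253) with Ad_Cont and -0.17 (SE 0.229) with Ad_Cre. The region 7821 bp outside (chr9:78355013-78355940) had 0.32 (SE 0.246) and 0.26 (SE 0.236). In between, the region 7520 bp outside the gene (chr9:78354712-78354999) went opposite ways in the arms. It had 8.06, 7.46 and 6.31 scaled tags in B2_minus against 11.1, 12.9 and 9.72 in control with Ad_Cont, and 15.6, 13.4 and 8.16 in B2_minus against 7.72, 6.96 and 7.89 in control with Ad_Cre. The groups did not overlap in either arm, being lower in B2_minus with Ad_Cont and higher in B2_minus with Ad_Cre. Its counts, 6 to 15 tags, start at the lowest listed count.

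Gsta3 (chr1:21240565-21265575, plus strand) showed a smaller difference at its start site and an opposite one far downstream. The start-site region, chr1:21240367-21240623, held 60.0, 48.0 and 55.8 scaled tags in B2_minus and 39.8, 44.8 and 46.4 in control libraries with Ad_Cont. With Ad_Cre it held 59.5, 54.6 and 54.4 in B2_minus and 45.2, 50.7 and 48.2 in control libraries. B2_minus libraries were higher with no overlap in both arms, by log2 0.33 (SE 0.124) and 0.22 (SE 0.116), which are ratios of 1.26 and 1.16. With Ad_Cre the log2 difference was 0.35 with listed tags as library size.

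The lower Gsta3 region, chr1:21296258-21296678, lies 30683 bp beyond the gene. It held 8.96, 12.8 and 11.6 scaled tags in B2_minus and 11.1, 15.9 and 11.9 in control libraries with Ad_Cont. With Ad_Cre it held 8.34, 8.62 and 6.35 in B2_minus and 16.5, 17.9 and 13.1 in control libraries. The groups overlapped with Ad_Cont and did not with Ad_Cre, and the log2 fold changes were -0.25 (SE 0.257) and -1.01 (SE 0.268). Counts there were 7 to 18 tags per library. The lowest, 7 tags in the third B2_minus library with Ad_Cre, equals the lowest listed count of that library. The difference between the arms is given further on as an interaction.

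Of the other 7 Gsta3 regions listed in every library, 5 lie inside the gene, from 0.67 to 12.53 kb past the start site, with log2 fold changes of 0.07 to 0.25 with Ad_Cont and 0.02 to 0.26 with Ad_Cre. The strongest of them, chr1:21252935-21253303, averaged 49.0 ± 5.89 in B2_minus and 44.0 ± 1.53 in control with Ad_Cont, and 52.5 ± 0.927 in B2_minus and 51.8 ± 5.44 in control with Ad_Cre. Another 2 lie 5907 and 13597 bp beyond the gene. They had log2 fold changes of 0.19 and 0.30 with Ad_Cont, and 0.15 and -0.08 with Ad_Cre. The farther of these, chr1:21279172-21279794, held 12.5, 13.9 and 11.6 scaled tags in B2_minus and 11.1, 10.95 and 8.64 in control with Ad_Cont, and 7.30, 8.62 and 9.97 in B2_minus and 11.03, 6.96 and 9.64 in control with Ad_Cre. It was higher in B2_minus with no overlap with Ad_Cont, and the groups overlapped with Ad_Cre.

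Gsta4 (chr9:78191966-78209349) had 6 regions listed in every library. Its strongest region, chr9:78217107-78217495, 7758 bp outside the gene, held 56.4, 52.2 and 50.5 scaled tags in B2_minus and 58.6, 56.7 and 55.1 in control with Ad_Cont, and 55.3, 51.7 and 54.4 in B2_minus and 50.7, 42.8 and 61.3 in control with Ad_Cre. The log2 fold changes were -0.09 (SE 0.116) and 0.05 (SE 0.115), and the groups overlapped in both arms. The region across the lower-coordinate end of the gene, chr9:78191554-78192118, averaged 39.3 ± 4.04 in B2_minus and 36.6 ± 11.05 in control with Ad_Cont, and 41.6 ± 3.27 in B2_minus and 33.0 ± 2.11 in control with Ad_Cre. It overlapped with Ad_Cont and not with Ad_Cre. The same held 3050 bp outside the gene, at chr9:78212399-78213229, with 35.8, 30.9 and 31.6 in B2_minus and 27.6, 36.8 and 21.6 in control with Ad_Cont, and 36.5, 40.2 and 36.3 in B2_minus and 35.3, 27.8 and 29.8 in control with Ad_Cre (log2 0.29, SE 0.158, with Ad_Cre). Over the 6 Gsta4 regions, log2 fold changes ran from -0.09 to 0.24 with Ad_Cont and from -0.21 to 0.33 with Ad_Cre.

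**Figure D4:**
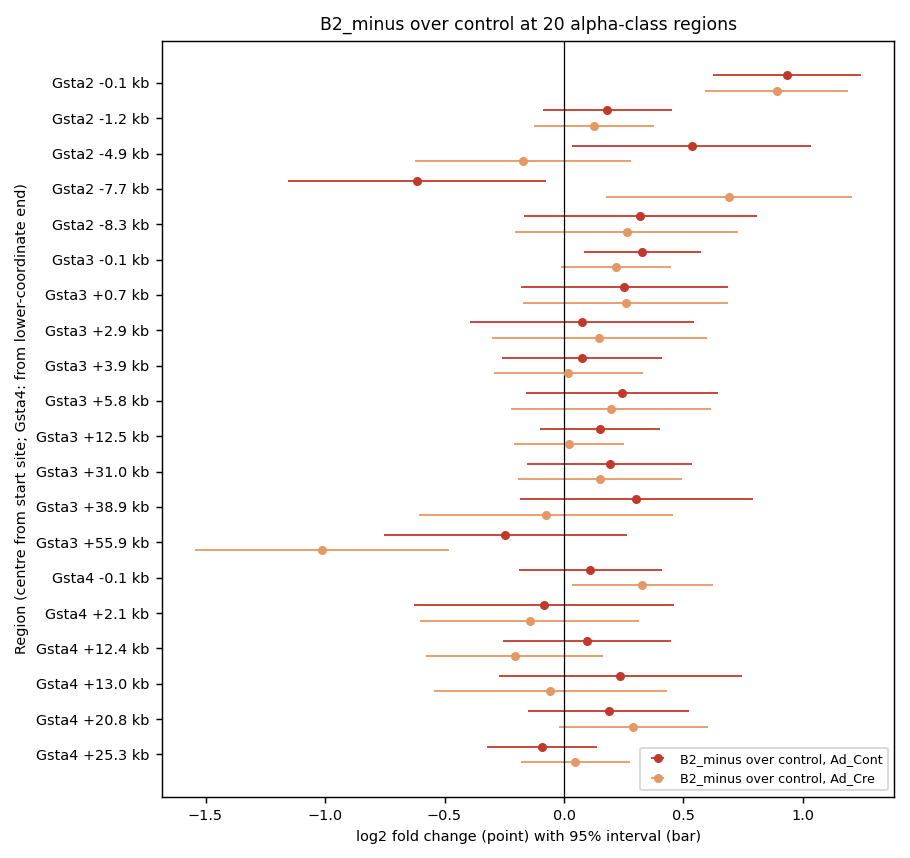
B2_minus over control log2 fold change (x axis; points, with 95% interval bars) of the 20 regions listed in every library (y axis), with Ad_Cont (dark) and Ad_Cre (light). The Gsta2 start site stands at 0.93 and 0.89, the Gsta3 region at +55.9 kb at -0.25 and -1.01, and the Gsta2 region at -7.7 kb at -0.62 and 0.69. Bars can be narrower than counting noise alone would give.

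Over the 20 regions, 16 were higher in B2_minus with Ad_Cont, with a median log2 fold change of 0.18, and 14 with Ad_Cre, with a median of 0.14. The medians of all 101575 regions were 0.01 and 0.00. Groups did not overlap in 4 of the 20 with Ad_Cont, 3 higher and 1 lower, where 17.3% of all regions did not overlap. With Ad_Cre 6 did not overlap, 5 higher and 1 lower, where the background was 17.5%. The start sites of Gsta2 and Gsta3 were the 2 regions above control without overlap in both arms, which 1.69% of all regions were. Since this contrast chose the genes, nothing is read from these counts.

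In a bulk library, fewer cells of a type and less signal per cell cannot be told apart. Hepatocyte marker regions summed to between 2767 and 3080 scaled tags in every library. Regions of 8 Kupffer cell markers, 6 of which had a listed region and 2 of which, Cd5l and Vsig4, had none, summed to 39.98 to 55.4 in B2_minus and 58.6 to 147 in control with Ad_Cont, and to 55.3 to 100.1 in B2_minus and 144 to 192 in control with Ad_Cre. All 7 cholangiocyte markers had listed regions, which summed to 413 to 464 in B2_minus and 545 to 601 in control with Ad_Cont, and to 450 to 488 in B2_minus and 564 to 633 in control with Ad_Cre. All 8 stellate cell markers had listed regions too, at 493 to 571 in B2_minus and 591 to 659 in control with Ad_Cont, and at 557 to 603 in B2_minus and 716 to 821 in control with Ad_Cre. Endothelial sums, over 8 of 8 markers, were 1046 to 1107 in B2_minus and 1016 to 1328 in control with Ad_Cont, and 1134 to 1209 in B2_minus and 1257 to 1277 in control with Ad_Cre. These sums cover regions within 1000 bp of a marker gene and include regions that only some libraries list. A region that a library does not list adds nothing to its sum. The counts that follow are of a different set, the regions within 50 kb of a marker gene. Among Kupffer marker regions listed in every library, 7 of 11 were higher in B2_minus with Ad_Cont (median log2 0.09) and 4 of 11 with Ad_Cre (median -0.16). For cholangiocyte markers 11 of 36 and 9 of 36 were higher (medians -0.17 and -0.09), and for stellate markers 10 of 28 and 7 of 28 (medians -0.14 and -0.17). The part of these cell types in the alpha-class values was not tested.

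Whether Ad_Cre changed these regions is a comparison that did not choose the genes. The targeted gene was looked at first. Ahr had 7 regions listed in every library, and the strongest, chr12:35534948-35535212, held 69.9, 66.1 and 65.3 scaled tags in B2_minus and 70.6, 75.6 and 66.6 in control libraries with Ad_Cre, against 78.0, 78.9 and 77.8 in B2_minus and 71.8, 70.7 and 76.7 in control libraries with Ad_Cont. None of the 7 was called for Ad_Cre over Ad_Cont averaged over B2_minus and control (lowest adjusted p 0.411, edgeR quasi-likelihood test with Benjamini-Hochberg adjustment over 101575 regions). Since the labels do not place the loxP sites, these regions do not check whether Ahr was removed.

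No alpha-class region was called for Ad_Cre against Ad_Cont by the same edgeR test. Among B2_minus libraries 0 of the 20 regions passed, with a lowest adjusted p of 0.471, and 3 had an unadjusted p under 0.05, as did 7.29% of all regions. Among control libraries 0 passed, with a lowest adjusted p of 0.580, and 2 had an unadjusted p under 0.05, as did 7.82% of all regions. Over all regions the test called 0.00197% in B2_minus and 0.00591% in control libraries, so few regions anywhere passed. Averaged over B2_minus and control, a contrast added after the data were seen, 0 of 20 passed, against 0.0955% of all regions, and 1 had an unadjusted p under 0.05, against 9.87%. Limma also called 0 of the 20 in each of these contrasts, as did DESeq2, which called 0 of all tested regions for Ad_Cre in B2_minus and in control libraries.

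At the Gsta2 start site, the Ad_Cre over Ad_Cont log2 difference was 0.00 in B2_minus (95% interval -0.25 to 0.25) and 0.04 in control libraries (-0.31 to 0.39). At the Gsta3 start site it was 0.03 in B2_minus (-0.19 to 0.25) and 0.14 in control libraries (-0.11 to 0.39). The lower Gsta3 region had -0.50 in B2_minus (-1.07 to 0.07) and 0.27 in control libraries (-0.20 to 0.73). The widest values were at the Gsta2 region 7520 bp outside the gene, at 0.73 in B2_minus (0.21 to 1.25) and -0.58 in control libraries (-1.11 to -0.04), and neither passed after adjustment. For Gsta4, differences ran from -0.38 to 0.38 in B2_minus and from -0.15 to 0.45 in control libraries. The intervals given for Gsta2 and Gsta3 come from the same fit and are narrower than counting noise alone would give.

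**Figure D5:**
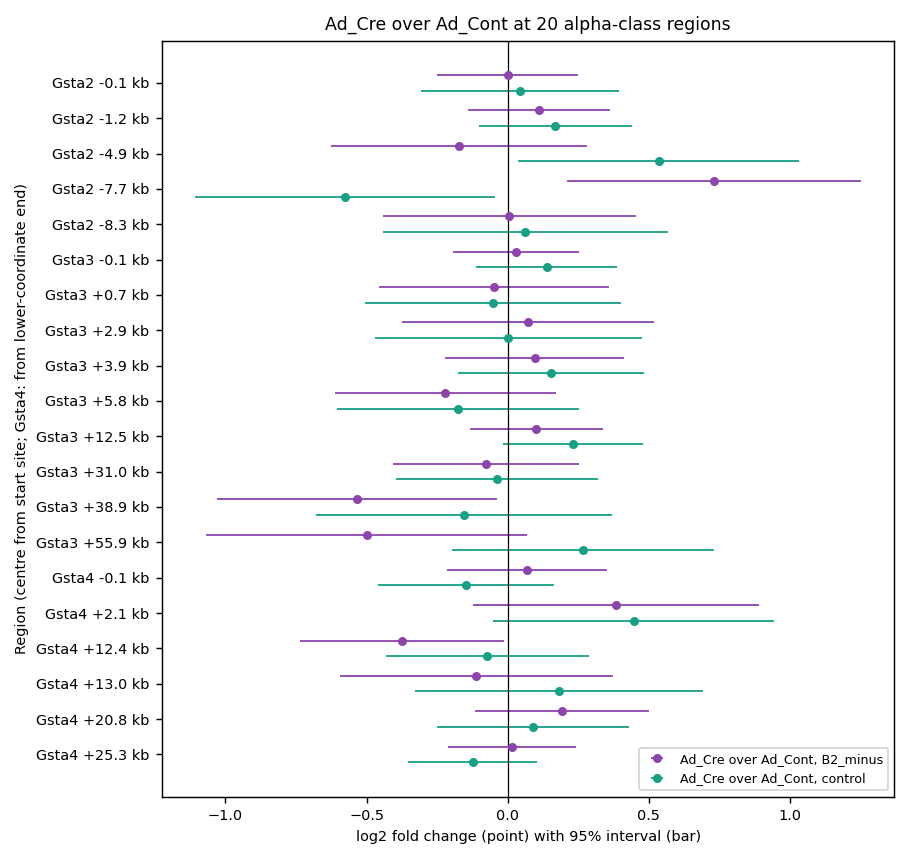
Ad_Cre over Ad_Cont log2 fold change (x axis; points, with 95% interval bars) of the 20 regions listed in every library (y axis), in B2_minus libraries (purple) and control libraries (green). At the Gsta2 start site both points lie near 0, at 0.00 and 0.04, and none of the 20 regions passed after adjustment in either comparison. Bars can be narrower than counting noise alone would give.

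The interaction asks whether the B2_minus difference depended on the Ad arm. It is built from the same B2_minus differences that chose the genes. Gsta2 was chosen for being higher in both arms, which favours a small interaction, and the lower Gsta3 region was picked by its averaged difference. The interactions are therefore descriptions. At the Gsta2 start site the interaction was -0.04 on the log2 scale (95% interval -0.47 to 0.39), and at the Gsta3 start site -0.11 (-0.44 to 0.23). A dependence within these intervals cannot be told from none. These intervals, too, are narrower than counting noise alone would give. The lower Gsta3 region, low in B2_minus with Ad_Cre, had an interaction of -0.77 (SE 0.372), with an adjusted p of 0.963 by edgeR. The Gsta2 region 7520 bp outside the gene had 1.31 (SE 0.377), with an unadjusted p of 0.000494 and an adjusted p of 0.823 by edgeR. Of the 20 regions 0 passed, as did 0% of all regions, and 3 had an unadjusted p under 0.05, where 5.14% of all regions did.

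Close relatives of the 3 genes lie beside Gsta2 on chromosome 9. Gsta1, Gm3776 and Gm10639 had 26 regions, of which 7 were listed in every library, and 0 passed the edgeR test for B2_minus over control averaged over both arms, where 5.78% of all regions passed. The Gsta1 start-site region, chr9:78230558-78230785, had 12.5, 17.1 and 12.6 scaled tags in B2_minus and 9.95, 8.96 and 13.0 in control with Ad_Cont, and 17.7, 17.2 and 13.6 in B2_minus and 9.92, 9.94 and 14.0 in control with Ad_Cre. The groups overlapped in both arms, and the averaged log2 fold change was 0.44 (SE 0.178, adjusted p 0.128 by edgeR). The upstream 250 bases of Gsta1, Gm3776 and Gm10639 were 99.1% to 99.6% identical in local alignment, and how reads that map to several places were handled is not given in the sources used here, so values at these 3 genes are uncertain. Gsta2 and Gsta1 were 74.7% identical over 237 aligned columns, while Gsta2 and Gsta3 aligned over 47 columns. The GCGTG seen at Gsta2 was also in the start-site windows of Gsta1, at -2 to 2, and Gm3776, at 11 to 15. It was not in that of Gm10639.

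Of 109 regions near 22 genes of glutathione transferases outside the alpha class, 6 rose and 2 fell in B2_minus over control averaged over both arms. That is 7.34% beside 5.78% of all regions, and their median log2 fold change was 0.07 beside 0.00 for all regions. These calls depended on the method, since DESeq2 called 0 of the 26 regions called here and in the 2 lists described next. Gstm3, of the mu class, rose most, at chr3:107974290-107974587, with 38.5 ± 4.25 scaled tags in B2_minus and 19.8 ± 7.84 in control with Ad_Cont, and 41.8 ± 5.92 in B2_minus and 26.9 ± 3.59 in control with Ad_Cre (log2 0.79, SE 0.122, adjusted p 2.88e-06 by edgeR). Gsto1, an omega-class enzyme, fell by 0.81 on the log2 scale (SE 0.179, adjusted p 0.00148 by edgeR), with 11.2 ± 1.13 in B2_minus and 17.6 ± 2.23 in control with Ad_Cont, and 7.999 ± 1.67 in B2_minus and 15.97 ± 2.83 in control with Ad_Cre. The Gsto1 region lies 740 bp outside the gene, and its B2_minus mean with Ad_Cre lay close to the lowest listed counts. Gstm2 rose by 0.34 (SE 0.0956, adjusted p 0.0162 by edgeR) and a region near Gstt2, of the theta class, fell by 0.29 (SE 0.0789, adjusted p 0.0114 by edgeR).

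Of 149 regions near 18 genes that make or recycle glutathione, 1 rose and 4 fell on the same average, which is 3.36%, with a median of -0.01. The region that rose was near Gclc, the catalytic subunit of the rate-limiting enzyme of glutathione synthesis, at log2 0.67 (SE 0.187, adjusted p 0.0157 by edgeR). It held 17.7 ± 4.48 scaled tags in B2_minus and 8.81 ± 0.163 in control with Ad_Cont. With Ad_Cre it held 10.1 ± 3.42 in B2_minus and 8.22 ± 0.522 in control, so the rise lay mainly with Ad_Cont. Control values were close to the lowest listed counts, and over the alternatives the average ran from 0.24 to 0.85. Regions near Ggct, an enzyme of glutathione breakdown, and inside Gsr, the glutathione reductase that carries a riboflavin-derived cofactor, fell by 0.69 and 0.58 (adjusted p 0.0110 and 0.0136 by edgeR). At Ggct the B2_minus means, 7.39 with Ad_Cont and 8.28 with Ad_Cre, lay close to the lowest listed counts. A region inside Gpx3, a secreted glutathione peroxidase, fell by 0.47 (adjusted p 0.0166 by edgeR). Its means were 21.2 in B2_minus and 35.7 in control with Ad_Cont, and 24.4 and 28.2 with Ad_Cre. The remaining region that fell was near the glutaredoxin gene Glrx, by 0.44 (adjusted p 0.0403 by edgeR). It held 25.9 ± 4.74 scaled tags in B2_minus and 26.7 ± 3.06 in control with Ad_Cont. With Ad_Cre it held 17.6 ± 4.25 in B2_minus and 30.7 ± 5.25 in control, so the fall lay in that arm.

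Genes of transcription factors known to act on alpha-class promoters, and their partners, had 225 tested regions near 13 genes, of which 9 rose and 4 fell, which is 5.78%, the same as over all regions, with a median of 0.05. Hnf4a, a hepatocyte transcription factor, had called regions in both directions, from -0.61 to 0.51. In the region at -0.61 the B2_minus means, 8.47 with Ad_Cont and 7.74 with Ad_Cre, lay close to the lowest listed counts. Regions near Cebpb and near Ahrr, the repressor of the aryl hydrocarbon receptor, fell by 0.59 and 0.57 (adjusted p 0.0289 and 0.0259 by edgeR), and a region near Nfe2l2, which encodes Nrf2, rose by 0.40 (adjusted p 0.0215 by edgeR). In the contrasts of Ad_Cre with Ad_Cont and in the interaction, 0 regions of these 3 lists passed by edgeR. Of the 26 regions called in these 3 lists for B2_minus, DESeq2 called 0. With the variance bounded at Poisson, edgeR called 2, at Gstm3 and Gsto1, and edgeR on the sum of peaks in a region called 6. Leaving out the first B2_minus library with Ad_Cont kept 13 of the 26. Calls over all regions varied with the method too. Within the arms, B2_minus over control had 1058 calls with Ad_Cont and 1146 with Ad_Cre. Over the alternatives these ran from 0 to 1077 and from 0 to 4559, and with a library left out from 264 to 1088 and from 350 to 1187.

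Outside the alpha class, the regions named here as most like the Gsta2 start site lay on other chromosomes. Across the 12 libraries, genes outside the alpha class among those with the highest Pearson correlation to the Gsta2 start site were Anxa4 (0.960), a calcium-dependent membrane-binding annexin, Hdhd5 (0.940), Slc5a4b (0.938) and Crybg3 (0.935). Their regions shared the step between B2_minus and control, as in Anxa4, with means of 51.3 in B2_minus and 38.3 in control with Ad_Cont, and 50.3 in B2_minus and 39.6 in control with Ad_Cre. Within the alpha class, the correlation with the Gsta2 start site ran from -0.643 at the lower Gsta3 region to 0.780 at the Gsta3 start site. It was 0.711 at the Gsta2 region 7821 bp outside the gene, 0.667 at the Gsta1 start site, 0.660 at a region 666 bp outside Gm3776 and 0.269 at the Gsta2 region 1.23 kb upstream. For the lower Gsta3 region the nearest patterns were at Asic2 (0.915), Sox5 (0.904), Snrpd3 (0.900), Rbm20 (0.898) and Sgk1 (0.898). All these points share libraries, scaling and group differences, and the correlations are descriptions picked as the highest of many.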

How the data were processed

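Chromatin accessibility was measured by ATAC-seq. Tools named in the submitters' processing notes are Bowtie2 and HOMER, and builds are hg38 and mm10, with no roles. Aligner settings, read shifting, duplicate and multi-mapping handling and peak thresholds: not given in the sources used here. The deposited lists give, for 1 library each, called peaks (nearly all of 200 bp) and whole-number tag counts. Their being unscaled was inferred from the numbers themselves. Peaks on chromosome Y or unplaced sequences, 0.138% to 0.162% per library, were left out.

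The quasi-likelihood F test of edgeR 4.0.16 (TMM, no Poisson bound; R 4.3.3) was run on counts in 101575 regions with a peak in all 12 libraries, in 4 groups with 1 shared spread, with p adjusted by Benjamini-Hochberg and called below 0.05. The fit was run on simulated counts with Poisson variance, which does not check it for variance below Poisson. SEs at Gsta2, Gsta3 and Gsta4 come from the fitted weights and those of other genes from the F statistic. With no Poisson bound, SEs and intervals can be narrower than counting noise alone would give, as at the Gsta2 start site. Gene bodies, start sites and promoter sequences are those of RefSeq on GRCm38.p6, the assembly of mm10. No start-site sequence was used for Gsta4. Alternatives used RLE scaling, listed tags as library size, DESeq2 1.42.0, limma 3.58.1 on log2(scaled tags + 1), other filters and merging, a replicate block, and each library left out.

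Regions of the 3 genes listed in every library were all described. The leading Gsta2 region and the lower Gsta3 region are those with the highest and lowest averaged B2_minus difference. For gene lists, up to 4 genes past the threshold were named by size, Glrx being named in addition after its value was seen. The 5 genes with the highest correlation to each leading region were named, except 1 that is not reported here. The genes and lists were chosen with earlier results of these data known.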

Additional observations from a re-analysis of the deposited data

Results flagged for a closer look

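The Gsta2 region 7520 bp outside the gene (chr9:78354712-78354999) drew attention because every B2_minus library lay below every control library with Ad_Cont and above every control library with Ad_Cre. Group means were 7.28 ± 0.890 scaled tags in B2_minus and 11.2 ± 1.62 in control with Ad_Cont, and 12.4 ± 3.84 in B2_minus and 7.52 ± 0.493 in control with Ad_Cre (SD, n = 3 each). The difference between the arms was 1.31 on the log2 scale (SE 0.377), and after adjustment over all regions it did not pass (adjusted p 0.823 by edgeR). Over the alternatives it ran from 1.17 to 1.38, and with each library left out in turn from 1.12 to 1.55.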

How the results depend on the processing

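The B2_minus over control difference at the Gsta2 start site, log2 0.93 with Ad_Cont and 0.89 with Ad_Cre, was 0.91 to 1.06 and 0.87 to 1.02 over the alternatives. With Ad_Cre it moved by more than the spread between replicates with listed tags as library size (1.02) and with regions listed in at least 3 libraries (0.99), and the cause was not tested. At the Gsta3 start site the difference with Ad_Cre, 0.22, was 0.35 and 0.32 under the same settings. With each library left out in turn, the Gsta2 start site had 0.85 to 1.06 with Ad_Cont and 0.85 to 0.95 with Ad_Cre. The lower Gsta3 region, at -0.25 and -1.01, was -0.25 to -0.12 and -1.03 to -0.88 over the alternatives, and -0.36 to -0.06 and -1.15 to -0.88 with a library left out; it has no value where a mean count of at least 15, a gene within 10 kb or merging at 100 bp of overlap was required. The count of alpha-class regions called for Ad_Cre against Ad_Cont, in B2_minus, in control or averaged, and for the interaction, was 0 in each of these alternatives and with each library left out.

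Deviations of same-numbered libraries from their group means correlated between -0.02 and 0.01, and those of other numbers between -0.01 and 0.01. Counting noise in single regions could hide a pairing, so whether replicate numbers pair the libraries stays unknown. With the replicate number as a block, the Gsta2 start site had 0.93 with Ad_Cont and 0.89 with Ad_Cre, the lower Gsta3 region -0.23 and -1.02, and 0 regions were called for Ad_Cre or the interaction. Lists held called peaks only, with 6 to 8 tags as the lowest count, so folds at weak sites are bounded by that count.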

Other observations

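Of the 90 alpha-class regions, 39 were listed in 2 to 11 libraries and 31 in 1 library, and a missing library lies below its lowest listed count rather than at 0. At Gsta2, a region 1999 bp outside the gene (chr9:78349191-78349459) was listed in 2 of 3 B2_minus and 0 of 3 control libraries with Ad_Cont, and in 2 of 3 B2_minus and 0 of 3 control libraries with Ad_Cre. Its listed values were 8.06 and 10.7 scaled tags in B2_minus with Ad_Cont and 8.34 and 13.4 in B2_minus with Ad_Cre, so they lie close to the limit of listing. Inside Gsta3, the region chr1:21241767-21242065 was listed in 0 of 3 B2_minus libraries and in 3 of 3 control libraries with Ad_Cre, at 11.03, 15.9 and 12.3 scaled tags. With Ad_Cont it was listed in 2 of 3 B2_minus libraries, at 13.4 and 11.6, and in 3 of 3 control libraries, at 15.5, 12.9 and 15.1. No other Gsta2, Gsta3 or Gsta4 region was listed in all libraries of a group and in none of the group it was set against. These listings were picked after their values were seen and were not tested.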
